A study of Mus musculus with 4 samples.

Results

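Interferon response genes were read in fetal mouse liver at gestation day 17, in wildtype animals and in animals heterozygous for Sox17 (Sox17+/-). The 34 genes were chosen by name, as regulators, sensors, antiviral effectors and antigen presentation genes that interferons induce, and each was read from the probe set with the highest mean signal among those annotated with that gene symbol alone. Of the 34, 32 had such a probe set, out of 18193 genes with one on the array. Isg15 shared its probe set with another symbol and Ifi44 was not listed in the annotation used, so neither is given a value. Of the 32, 29 belonged to the brighter 50% of probe sets that were tested, and Ifit1, Dhx58 and Nlrc5 lay below it and are given as signals only.

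There were 2 biological replicates per genotype, with 1 array for each. The animals came from C57BL/6 females mated with Sox17+/- males of that strain, and the liver was freed of the biliary system before RNA was extracted. The sources used here do not state what the Sox17 allele removes, the sex of the fetuses or if replicates were single fetuses or pools. The p-values therefore measure only the spread between these samples. The labels name no interferon, virus or other agent for either genotype.

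Interferons are secreted proteins of antiviral defence. Type I interferons bind the receptor pair Ifnar1 and Ifnar2, whose kinases Jak1 and Tyk2 activate STAT proteins. A complex of STAT proteins with Irf9 then binds the interferon-stimulated response element (ISRE) at target genes. Type II interferon acts through Ifngr1 and Ifngr2 and a shorter element, the gamma-activated site (GAS). In uninfected tissue many target genes are transcribed at a low basal level, and in fetal liver, where blood cells are formed among the hepatocytes, both hepatocytes and haematopoietic cells carry the receptors.

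The response element is shown here because it is the element through which type I interferon acts, and the choice of genes did not use it. In the RefSeq gene start windows of GRCm38.p6, which run from 250 bases upstream to 50 bases downstream, 28 of the 34 genes were listed under their symbol, and Usp18, Dhx58, Oas2, Parp14, Iigp1 and Nlrc5 were not. The letters GAAA, any 2 bases and GAAA, searched on both strands, occurred in 14 of the 28 (50%), against 1079 of 27025 genes (3.99%) over all windows of the same length. The letters TTC, any 3 bases and GAA, which read the same on both strands, occurred in 8 of the 28 (28.6%) against 9.55% of all genes. A match is a description of the letters only. Stretches of 9 genes follow, 5′ to 3′ on the gene's strand, all upstream of the start, with ISRE-like letters in capitals (overlapping matches form 1 longer run of capitals) and up to 20 bases on either side.
Ifit1, chr19:34640765-34640833, plus strand: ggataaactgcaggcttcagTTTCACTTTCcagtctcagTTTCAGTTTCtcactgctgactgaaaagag
Ifit3, chr19:34583353-34583436, plus strand: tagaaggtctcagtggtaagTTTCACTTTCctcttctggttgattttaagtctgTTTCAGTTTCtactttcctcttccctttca
Bst2, chr8:71537567-71537622, minus strand: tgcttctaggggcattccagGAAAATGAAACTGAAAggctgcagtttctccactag
Oas1a, chr5:120907526-120907565, minus strand: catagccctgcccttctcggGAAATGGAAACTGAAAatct
Stat2, chr10:128270256-128270305, plus strand: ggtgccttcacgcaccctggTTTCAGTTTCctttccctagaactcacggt
Rsad2, chr12:26456543-26456592, minus strand: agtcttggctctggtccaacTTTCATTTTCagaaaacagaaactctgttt
Igtp, chr11:58199502-58199551, plus strand: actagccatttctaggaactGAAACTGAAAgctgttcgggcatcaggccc
B2m, chr2:122147528-122147577, plus strand: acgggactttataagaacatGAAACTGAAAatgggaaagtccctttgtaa
Cxcl10, chr5:92349073-92349122, minus strand: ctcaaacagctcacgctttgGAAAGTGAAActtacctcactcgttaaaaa
Ifit1 and Ifit3 each held 2 separate matches, and Bst2 and Oas1a each held 2 that overlap. Cxcl10, a chemokine that is not one of the 34, is printed for comparison because its signal differed far more between the genotypes than that of any of the 32 measured genes, as described further on. Oasl2, with the largest difference of the 32 measured genes, had no ISRE-like letters in its window. The last 100 bases before its start, chr5:114896834-114896933 on the plus strand, are printed so that they can be read against the others.
Oasl2: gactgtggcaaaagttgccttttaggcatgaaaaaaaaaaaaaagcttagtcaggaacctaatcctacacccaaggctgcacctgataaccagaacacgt

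**Figure D1:**
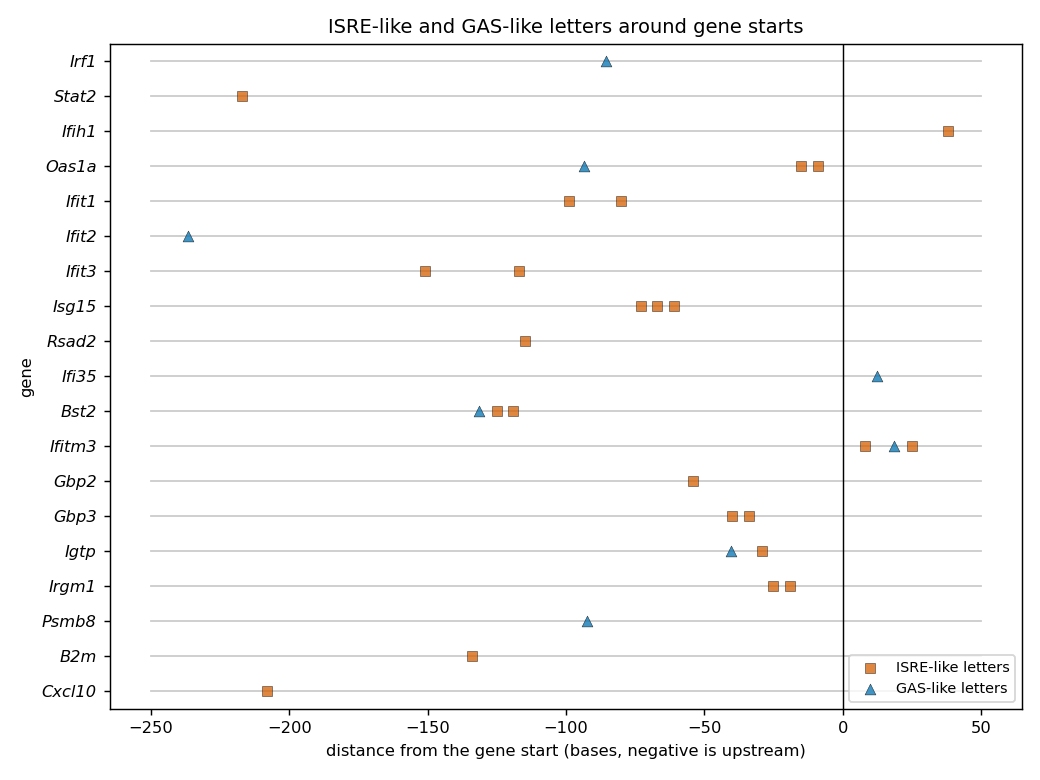
Positions of ISRE-like letters (orange squares) and GAS-like letters (blue triangles) in the gene start windows, plotted as distance of the middle of each match from the gene start in bases, 1 row per gene with any match. Most matches lie upstream, while those of Ifih1, Ifi35 and Ifitm3 lie after the start.

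The arrays had been scaled to a common trimmed mean of 500 (2% trimmed at either end), with medians of 84.7 to 103. Their maximum was 56988 (wildtype) and 56860 (heterozygous) for array number 1, and 34407 and 32468 for array number 2. Of 8 hepatocyte markers 7 were measured and lay between 17767 and 56988 on every array. The number of arrays limits the precision of every value given here.

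None of the 29 tested interferon response genes passed the adjusted threshold for a difference between the genotypes. Oasl2 alone had a 95% confidence interval that left out 0. It passed the brightness filter only through its heterozygous signals, so no support is drawn from its interval or its unadjusted p. In the limma fit with Benjamini-Hochberg adjustment over all 22519 tested probe sets, 0 of 29 passed the threshold of 0.05, and their lowest adjusted p was 0.9999. The background was 0% of 11676 tested genes, and the smallest adjusted p of any probe set was 0.387. At an unadjusted p under 0.05, 1 of the 29 was higher (Oasl2), where 1.6% of all tested genes were, and 0 were lower, where 2.55% were. For a single gene, 2 against 2 arrays allow an exact permutation p no smaller than 0.333 (two-sided).

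Differences are given on the scale of log2(signal + 16), on which that of a dim gene is understated. The median difference (heterozygous minus wildtype) was 0.13 over the 29 genes and -0.02 over all tested genes. Of the 29, 20 lay above 0 and 9 below, beside 5347 above and 6329 below of all 11676 tested genes. Differences ranged from -0.24 for Stat2 to 1.07 for Oasl2. Only 2 of the 29 (Oasl2 and Iigp1) exceeded 0.5 in size, as did 10.6% of all tested genes, and 1 (Oasl2) exceeded 1, as did 1.85%. The standard errors ran from 0.20 to 0.74, and the 95% confidence interval reached a median of 0.67 to either side. That interval lay between -1 and 1 for 20 of the 29, so that for these a log2 difference of 1 or -1 lay outside it. For the other 9 (Oas2, Oasl2, Rsad2, Xaf1, Ifitm3, Gbp2, Gbp3, Iigp1 and Igtp) the interval reached past 1 in size.

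Both heterozygous arrays lay above both wildtype arrays for 4 of the 29 genes (Irf9, Oasl2, Bst2 and Xaf1), or 13.8%, against 14.5% of all tested genes. Both lay below for 1 (Stat2), or 3.45%, against 18.7%. With the arrays centred on their medians the background was 16.1% higher and 11.1% lower, and the counts were 3 and 1. Within same-numbered arrays, 11 genes were higher in the heterozygous array of both pairs, or 37.9% against 25.5% of all tested genes, and 3 were lower in both (Stat2, Igtp and B2m), or 10.3% against 32.3%. These counts moved with each array. With wildtype array 1 left out, groups did not overlap for 18 genes on the higher and 5 on the lower side, where 30.2% and 36.2% of all tested genes did so. Without wildtype array 2 the counts were 7 and 10 (background 31.4% and 37.7%). Without heterozygous array 1 they were 6 and 6 (30.1% and 34.7%), and without heterozygous array 2 they were 13 and 3 (29.1% and 36.9%). The median difference was 0.26 without wildtype array 1 and -0.10 without wildtype array 2, 0.0019 without heterozygous array 1 and 0.16 without heterozygous array 2.

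**Figure D2:**
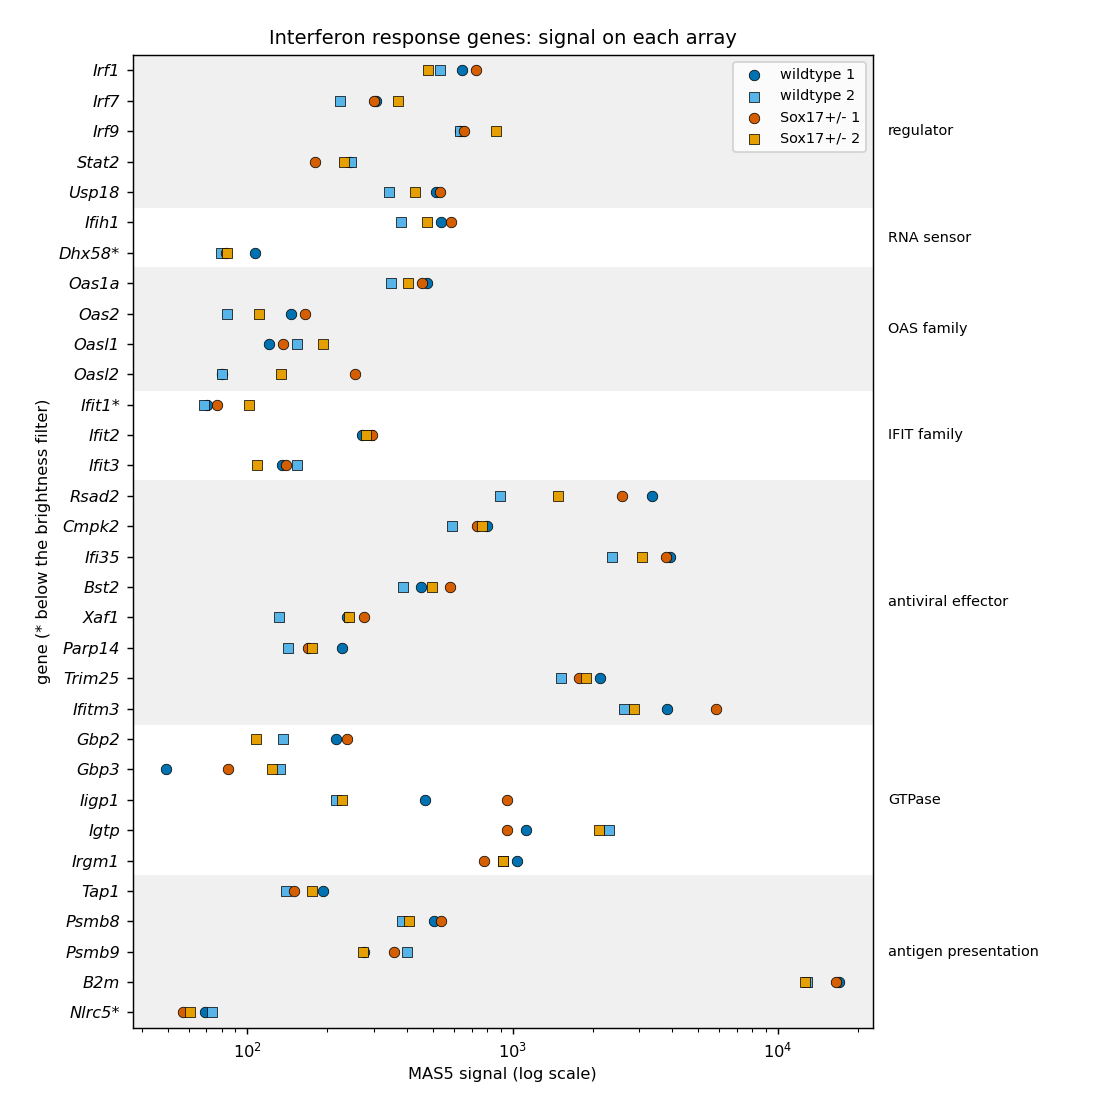
Signal of each of the 32 measured genes on each of the 4 arrays (log axis), grouped by role, with wildtype in blue, heterozygous in orange, circles for arrays numbered 1 and squares for arrays numbered 2. Oasl2 shows both heterozygous arrays above both wildtype arrays, while for Rsad2, Iigp1 and Igtp the circles part from the squares whatever the genotype.

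Among the regulators of the response, Irf9, the DNA-binding partner of the STAT proteins, had signals of 633 and 631 on the wildtype arrays and 657 and 864 on the heterozygous arrays. The groups did not overlap, although heterozygous array 1 lay close to both wildtype arrays, and the log2 difference was 0.25 (SE 0.23). Stat2, the STAT protein particular to the type I pathway, had 243 and 246 in wildtype against 180 and 231 in heterozygous liver, a log2 difference of -0.24 (SE 0.22). A dimmer probe set of Stat2 had 117 and 107 against 62.5 and 79.1. It passed the brightness filter only through its wildtype signals (heterozygous mean 70.8, lowest tested mean 89.7), so its difference is no support for the first. Irf9 and Stat2, which act in 1 complex, thus lay on opposite sides of 0.

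Irf7, a factor that amplifies interferon production and is itself induced by interferon, had signals of 306 and 224 in wildtype and 300.0 and 368 in heterozygous liver. Heterozygous array 2 was the highest of the 4, and the other heterozygous array lay below wildtype array 1. Usp18, which removes Isg15 from proteins and blocks receptor signalling, had 514 and 342 against 532 and 426, so that the arrays numbered 1 were the higher ones in both genotypes. Irf1, induced most directly by type II interferon, had 643 and 534 against 725 and 480.2, with a log2 difference of 0.01 (SE 0.28), and here too the arrays numbered 1 were the higher ones.

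Among the sensors of viral RNA, Ifih1, which encodes the helicase MDA5, had signals of 536 and 378 in wildtype and 583 and 474 in heterozygous liver. The groups overlapped, since heterozygous array 2 lay below wildtype array 1. Dhx58, a helicase that modulates such sensing, was below the brightness filter, with 107 and 79.5 against 83.2 and 83.5.

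The OAS family encodes oligoadenylate synthetases, which activate an RNA-degrading enzyme when they meet double-stranded RNA, and the related OAS-like proteins. Oasl2 had signals of 80.1 and 80.0 on the wildtype arrays and 254 and 134 on the heterozygous arrays. Both heterozygous arrays were above both wildtype arrays, which differed from each other by less than 1 unit, while the heterozygous arrays differed from each other by more than heterozygous array 2 differed from wildtype. The log2 difference was 1.07 (SE 0.33, 95% interval 0.23 to 1.91), 2.10-fold on this scale, and was 1.49 within the arrays numbered 1 and 0.65 within those numbered 2. It did not pass the limma test (adjusted p = 0.9999). Oasl2 was measured by 1 probe set, and its wildtype mean of 80.1 was itself lower than the lowest mean signal of any tested probe set, 89.7. Oasl2 therefore passed the brightness filter only through its heterozygous signals, so its interval and unadjusted p are no support for a difference.

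The other 3 members of the family had log2 differences of 0.08 to 0.24. Oas1a, whose start region is printed above, had 477 and 347 in wildtype against 457 and 404. Oas2 had 147 and 83.7 against 164 and 110, and Oasl1 had 120 and 154 against 136 and 193. For each of the 3 the genotypes overlapped, and the array number parted the signals instead, upward on the arrays numbered 1 for Oas1a and Oas2 and downward for Oasl1.

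The IFIT genes encode proteins that bind foreign RNA and are among the strongest targets of type I interferon. Ifit1 was below the brightness filter, with 70.4 and 68.4 in wildtype and 77.0 and 101 in heterozygous liver. Both heterozygous arrays were above both wildtype arrays, the one numbered 1 by little. Ifit2 had 270.2 and 287 against 294 and 279, with the lowest standard error of the 29 genes (0.20) and a log2 difference of 0.04 (95% interval -0.46 to 0.54). Ifit3 had 135 and 154 against 139 and 109, and its groups overlapped. The signs of the 3 genes were mixed, but the intervals of Ifit2 and Ifit3 held both signs and Ifit1 was not tested. Ifit1 and Ifit3 carry the paired ISRE-like letters printed above.

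Of the 8 tested antiviral effectors, 7 had log2 differences above 0 and 1 (Parp14) below, beside 5347 above and 6329 below of all 11676 tested genes. Bst2, the tetherin that holds budding virus at the cell surface, had signals of 451 and 387 in wildtype and 581 and 495 in heterozygous liver. Both heterozygous arrays lay above both wildtype arrays, and the difference was alike within the arrays numbered 1 (0.36) and those numbered 2 (0.34), for a mean log2 difference of 0.35 (SE 0.22). Xaf1, which promotes cell death, had 238 and 131 against 275 and 241, with heterozygous array 2 only just above wildtype array 1 and a log2 difference of 0.50 (SE 0.32). Its dimmer probe set had 70.6 and 54.7 against 128 and 137. That probe set passed the brightness filter only through its heterozygous signals (wildtype mean 62.7, lowest tested mean 89.7), so its difference is no support for the first.

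Rsad2, which encodes viperin, and Cmpk2, a nucleotide kinase, were among the effectors whose genotypes overlapped. Rsad2 had 3347 and 895 in wildtype and 2591 and 1483 in heterozygous liver, so that its wildtype replicates differed from each other more than the genotypes did (log2 difference 0.18, SE 0.67). Its other 2 probe sets gave log2 differences of 0.38 and 0.29 with the same order of array numbers. Cmpk2 had 798 and 589.8 against 736 and 768, and its dimmer probe set had the opposite sign, at -0.38 (SE 0.33).

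Ifitm3, which blocks viral entry, had 3808 and 2626 in wildtype and 5833 and 2864 in heterozygous liver. Heterozygous array 1 was the highest of the 4 by far, and heterozygous array 2 lay below wildtype array 1 (log2 difference 0.37, SE 0.41). Ifi35 had 3912 and 2362 against 3798 and 3062. Its dimmest probe set ran the other way without overlap, with 444 and 468 against 419 and 396 (log2 difference -0.16, SE 0.20), and another gave 0.16. Trim25, a ubiquitin ligase of RNA sensing, had 2135 and 1528 against 1785 and 1883. Parp14, an ADP-ribosyltransferase, had 228 and 143 against 168 and 175. For the brightest probe set of each of the 3 the genotypes overlapped.

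**Figure D3:**
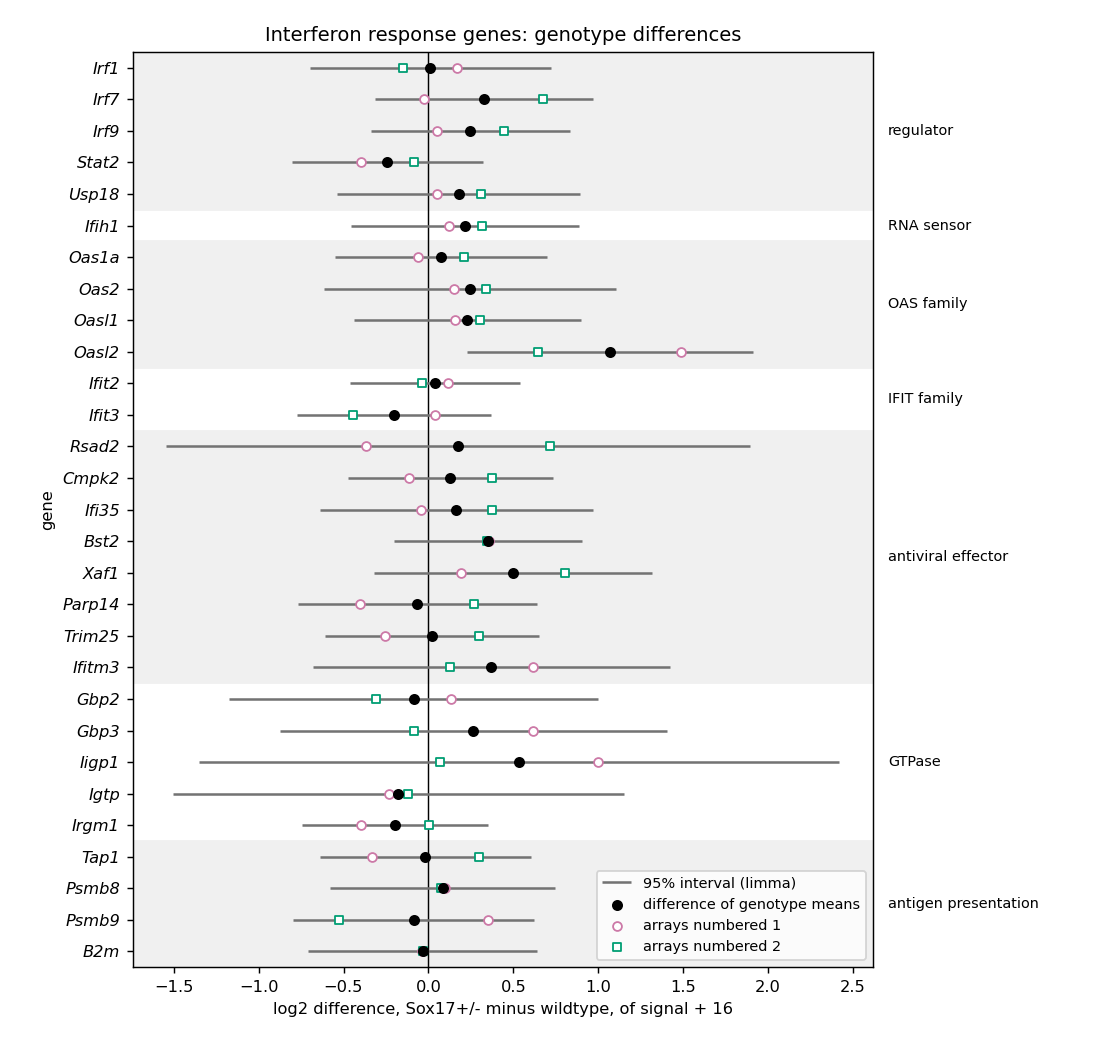
Log2 difference (heterozygous minus wildtype, of signal + 16) of the 29 tested genes, with the 95% interval of the limma fit as a bar, the difference of genotype means as a filled point, and the differences within the arrays numbered 1 (open circle) and 2 (open square). The interval of Oasl2, 0.23 to 1.91, is the only one that leaves out 0, but Oasl2 passed the brightness filter only through its heterozygous signals.

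The interferon-induced GTPases act on the vacuoles of intracellular pathogens, and their median standard error of 0.45 was the highest of the roles. Iigp1 had signals of 469 and 215 in wildtype and 952 and 227 in heterozygous liver. Its log2 difference of 0.53 (SE 0.74) came from the arrays numbered 1, where it was 0.997, while it was 0.07 within those numbered 2. Its other probe set had 243 and 73.7 against 538 and 98.5, the same order. Igtp had 1123 and 2301 against 954 and 2113, lower by a little in both pairs and about as far apart between array numbers in each genotype. Irgm1 had 1035 and 919 against 781 and 921, Gbp2 had 215 and 137 against 238 and 107, and Gbp3 had 49.4 and 132 against 84.1 and 124. None of the 5 parted the genotypes, where 14.5% of all tested genes did so on the higher and 18.7% on the lower side. The signs of the differences were mixed, 2 above 0 and 3 below, beside 5347 above and 6329 below of all 11676 tested genes.

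Antigen presentation genes encode the immunoproteasome subunits Psmb8 and Psmb9, the peptide transporter subunit Tap1, the light chain B2m of class I molecules, and their transcriptional activator Nlrc5. B2m had signals of 17043 and 12877 in wildtype and 16607 and 12600.3 in heterozygous liver, a log2 difference of -0.03 (SE 0.26), and its other probe set gave -0.04. Psmb8 had 503 and 384 against 539 and 405, Psmb9 had 276 and 399 against 357 and 272, and Tap1 had 192 and 140 against 150 and 176. The 4 tested differences lay between -0.09 and 0.08. None of the 4 parted the genotypes, where 14.5% of all tested genes did so on the higher and 18.7% on the lower side. Nlrc5, below the filter, had 69 and 73.2 against 57.4 and 60.6, with both heterozygous arrays below both wildtype arrays. Psmb8 and Parp14 each had a second, dim probe set on the other side of the filter, with 2.46 and 7.51 against 67.7 and 35.5 for Psmb8 and 7.10 and 6.47 against 79.2 and 29.7 for Parp14. These parted the genotypes where the brighter probe sets of the same genes did not, but they were too dim to be tested. Other untested probe sets parted the genotypes in either direction. A dim probe set of Dhx58 was lower, with 38.3 and 29.3 against 25.2 and 18.3. For Tap1 a dim probe set was lower, with 11.6 and 9.80 against 3.85 and 8.79. Another of Tap1 was higher, with 2.69 and 10.8 against 20.2 and 17.7.

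For most of these genes, as for most of all tested genes, the array number parted the signals further than the genotype. Both arrays numbered 1 were above both numbered 2 for 12 of the 29 genes, or 41.4% against 22% of all tested genes. Both were below for 3 (Oasl1, Gbp3 and Igtp), or 10.3% against 23%. The difference between array numbers was larger in size than that between genotypes for 19 of the 29, or 65.5% against 56.1% of all tested genes. Its median size was 0.39 over the 29 and 0.21 over all tested genes. For the genotype difference the median size was 0.18 and 0.17. The array number difference reached 1.53 for Iigp1, 1.34 for Rsad2 and -1.08 for Igtp (numbered 1 minus numbered 2). The median log2 signal of the 29 genes was 8.92 and 8.503 on the wildtype arrays and 9.10 and 8.71 on the heterozygous arrays, while that of all tested genes lay between 9.29 and 9.34 on all 4. Same-numbered arrays also share a code in the array names of the labels, and the ceiling of the signals differed between the numbers, as given above. The part of either in these differences was not tested.

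**Figure D4:**
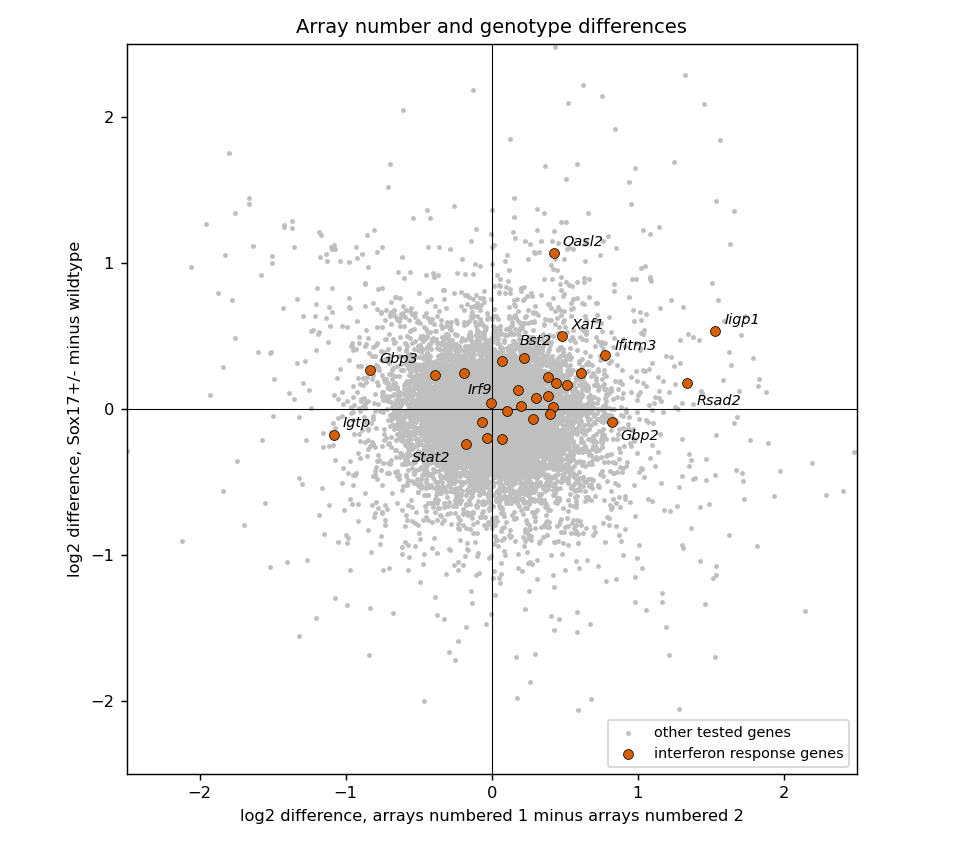
Difference between the arrays numbered 1 and 2 (x axis, log2) against the difference between heterozygous and wildtype arrays (y axis, log2) for the 29 tested genes (orange) and all other tested genes (grey, of which 15 lie outside the axes). The orange points spread further along the x axis, from -1.08 for Igtp to 1.53 for Iigp1, than along the y axis, where Oasl2 stands highest at 1.07.

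The genes that receive and carry the interferon signal were read from a separate list of 40 genes, of which 34 were measured and 25 tested. In limma 0 of the 25 passed after adjustment, and at an unadjusted p under 0.05 there were 1 higher (Ifngr1) and 1 lower (Irf5), beside 1.6% and 2.55% of all tested genes. Both heterozygous arrays lay above both wildtype arrays for 5 of the 25 (20%, against 14.5% of all tested genes) and below for 3 (12%, against 18.7%). The receptor subunit Ifngr1 had signals of 757 and 888 in wildtype and 1337 and 1193 in heterozygous liver (log2 difference 0.61, SE 0.21). Ifnar2 had 3243 and 3087 against 4758 and 3590.0 (0.38, SE 0.23), and the kinase Jak1 had 2266 and 2684 against 3733 and 3406 (0.53, SE 0.21). In these 3 genes the groups did not overlap.

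The groups overlapped for the partner subunits Ifnar1 and Ifngr2. Ifnar1 had 800.3 and 860 in wildtype against 826 and 850.3 in heterozygous liver, and Ifngr2 had 461 and 480.2 against 639 and 398. The kinases Tyk2 and Jak2 had 360.4 and 507 against 419 and 454, and 1282 and 2306 against 1439 and 1871. Il10rb, a subunit shared by type III interferon and interleukin receptors, had 1848 and 1443 against 2089 and 1936, without overlap (log2 difference 0.30, SE 0.23), while Ifnlr1, its interferon-specific partner, was below the filter. Stat3 had 720.0 and 1838 against 1605 and 1690.2, with wildtype array 1 alone low. Socs3, a feedback inhibitor of Jak kinases, had 450.5 and 643 against 909 and 684, the last just above the higher wildtype array. On the lower side stood 3 genes. The factor Irf5 had 277 and 260.2 against 182 and 178, Irf3 had 1367 and 1346 against 1111 and 1273, and the DNA sensor gene Cgas had 163 and 220.2 against 139 and 130.1.

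The interferon genes themselves were dim. Ifng lay between 2.17 and 10.2 on the 4 arrays, and Ifna4 between 6.78 and 43.1. Ifnb1 had 7.09 and 62.1 in wildtype and 82.0 and 61.5 in heterozygous liver, with no order by genotype. Ifna1 and Ifna2 passed the brightness filter, with 130 and 123 against 131 and 22 and with 89.9 and 169 against 95 and 60.9. Both passed it only through their wildtype signals (heterozygous means 76.4 and 78.0, lowest tested mean 89.7), so no difference is read from them. The probe sets of such near-identical genes can share signal.

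A second list held 60 other genes that interferons induce, of which 53 were measured and 41 tested. Of the 41, 0 passed after adjustment in limma, and at an unadjusted p under 0.05 there were 3 higher (Cxcl10, Ccl2 and H2-Ab1) and 1 lower (Cd74), beside 1.6% and 2.55% of all tested genes. Of the 41, 7 had both heterozygous arrays above (17.1%) and 6 had both below (14.6%), beside 14.5% and 18.7% of all tested genes, and their median log2 difference was -0.03. Among them 3 tested genes parted the genotypes by over 1 on the log2 scale, and none of the 3 is induced by interferon alone. Cxcl10, whose chemokine product attracts T cells, had 105 and 191 on the wildtype arrays and 5132 and 1215 on the heterozygous arrays, a log2 difference of 3.99 (SE 0.72). Ccl2 had 106 and 89.0 against 629 and 348 (2.10, SE 0.33), and H2-Ab1, a class II antigen presentation gene, had 367 and 339 against 1033 and 621 (1.15, SE 0.30). Cd74 and H2-Aa, which act in the same class II pathway, had 421 and 438 against 286 and 263 and had 429 and 255 against 242 and 232, lower on both heterozygous arrays. Cxcl11, related to Cxcl10, was below the filter with 3.75 and 11.6 against 55.9 and 25.8.

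ISRE-like letters stood upstream of the start in Cxcl10 and in Bst2, Ifit1 and Rsad2 alike, at very unequal differences. Among the tested interferon response genes with a listed window, the 12 with ISRE-like letters had log2 differences between -0.24 and 0.37 (median 0.02), and the 13 without had differences between -0.09 and 1.07 (median 0.13). Of the genes whose heterozygous arrays both lay above wildtype, 1 (Bst2) had a match and 3 did not.

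Markers of cells that carry interferon responses are given beside these values. Of 13 macrophage markers 12 were tested, of which 5 were lower on both heterozygous arrays (41.7%, against 18.7% of all tested genes) and 1 was higher (8.33%, against 14.5%). Vsig4 had 811 and 364 in wildtype against 130.03 and 194 in heterozygous liver, and Clec4f had 1097 and 584 against 487 and 402. Marco had 2257 and 1738 against 5024 and 3274, the opposite order. The summed signal of the 13, which brighter markers such as Csf1r, Cd5l and C1qb carry, lay between 25885 and 31131 in wildtype and between 26654 and 30127 in heterozygous liver. Of 10 endothelial markers, all tested, 4 were higher (40%) and 1 lower (10%), with sums of 7881 to 9972 and 9491 to 10025. Of 10 lymphoid and NK markers 6 were tested, of which 0 were higher and 1 lower (16.7%), with sums over the 8 measured of 1635 to 2748 and 1461 to 1933, and Cd3e had a mean signal of 43.7. Of 6 markers of plasmacytoid dendritic cells, the main producers of type I interferon, 3 were tested. Of these 1 was higher, Bst2 itself, and 0 lower, and the sums over the 6 were 1685 to 2207 and 1764 to 2026. Below the filter, Siglech had 81.5 and 60.1 against 17.0 and 35.1. Ccr9, also below it, ran the other way without overlap, with 40.5 and 14.7 against 80.1 and 43.0. Cd209d, below it too, overlapped, with 74.4 and 17.3 against 12.2 and 55.9. Erythroid (6 tested), neutrophil (7) and biliary markers (3) parted the genotypes in 1, 0 and 1 case, the erythroid one lower and the biliary one higher. The biliary one, Cldn4, passed the brightness filter only through its heterozygous signals (mean 159, against 72.9 in wildtype). Of the 7 hepatocyte markers 0 parted the genotypes. None of these markers had an adjusted p under 0.05, and their part in the values above was not tested. In whole liver RNA, fewer cells of a type and less RNA per cell cannot be told apart.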

How the data were processed

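The deposited values are signals (intensity, linear scale) of 45101 probe sets on 4 single-colour arrays, and the submitters' processing notes name MAS5. MAS5 version and detection calls were not given in the sources used here. MAS5 scales each array on its own, so a difference in total RNA is removed and dim signals carry much noise. The 64 control probe sets were left out. Genes were named from the platform annotation, from probe sets with 1 symbol (34945, against 932 with several and 9160 with none). log2(signal + 16) entered a limma model (version 3.58.1, R 4.3.3; lmFit, eBayes) of genotype alone, two-sided, for the 22519 probe sets in the brighter 50% by mean over all arrays, with Benjamini-Hochberg adjustment and a threshold of 0.05. The fit had 2 residual degrees of freedom, to which the prior added 3.06. Counts over all tested genes use each gene's brightest probe set. The code was tested on simulated data. Members, lists and tests were chosen with earlier results of these data known. Older symbols in the lists were updated through RefSeq synonyms. The rule gave every array's signal for members whose groups do not overlap and the brightest of each role, and named list genes that part the genotypes by a log2 difference over 1 or are receptors, kinases or STATs. All other named genes with such signals were added after their values were seen. ISRE-like and GAS-like letters were searched in the RefSeq windows with Python 3.11.15. Alternatives were pseudocounts of 1 and 64, no filter, the brighter 25%, median centring, quantile normalization, a trended and robust prior, the array number as a block, the mean over a gene's probe sets, and leaving out each array.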

Additional observations from a re-analysis of the deposited data

How the results depend on the processing

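No interferon response gene passed the adjusted threshold in any of the alternatives run, and the smallest adjusted p of any of them was 0.586. Over all probe sets 3 passed with median centring and 3 with a trended and robust prior, all of Hspa1a and Hspa1b. The genes with both heterozygous arrays above both wildtype arrays numbered 2 among the brighter 25% (background 16.1% of genes). With 1 array left out they numbered 6 to 18 (29.1% to 31.4%). Over all probe sets of each gene they numbered 6, and no background share was computed for that setting. It brings in the dim, untested probe sets of Psmb8 and Parp14, whose log2 differences there were 0.87 and 0.73. Genes with both heterozygous arrays below both wildtype arrays numbered 2 with no filter (19%), 2 with quantile normalization (19%), 0 among the brighter 25% (16.3%) and 3 to 10 with 1 array left out (34.7% to 37.7%). Fewer genes enter with the stricter filter (14 of the 29) and groups of 1 and 2 arrays part more easily. The array number as a replicate block cannot, in this balanced design, move a difference (median 0.13) but only its error. With that block, Oasl2 was the 1 gene of 29 with an unadjusted p under 0.05 in limma (adjusted p = 0.649). That was 3.45% against 6.81% of all tested genes, and Oasl2 passed the brightness filter only through its heterozygous signals. The deviations of same-numbered arrays correlated at r = 0.383 over 22519 probe sets, which are not independent, and at 0.607 over the 29 genes, but with 2 pairs and no stated meaning of the number the arrays were not treated as paired.

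Some signs turned with other settings. Tap1 became 0.029 with median centring and 0.034 with quantile normalization, B2m 0.012 with median centring, and, over all probe sets of the gene, Cmpk2 -0.13 and Parp14 0.73. The cause was not tested, except that the last 2 bring in a further probe set. With 1 array left out, 21 of the 29 genes changed sign in at least 1 case. The matching shares of all tested genes were not computed, so these counts have no background to be set against. The other 8 (Irf7, Irf9, Stat2, Oasl2, Ifit3, Bst2, Xaf1 and Irgm1) kept their sign under every alternative. With 1 array left out their log2 differences ranged from 0.11 to 0.54 for Irf7, 0.054 to 0.44 for Irf9, -0.41 to -0.076 for Stat2, 0.65 to 1.49 for Oasl2, -0.36 to -0.048 for Ifit3, 0.24 to 0.46 for Bst2, 0.10 to 0.89 for Xaf1 and -0.31 to -0.081 for Irgm1. The values nearest 0 came without heterozygous array 1 for Stat2, Oasl2, Bst2 and Irgm1, without heterozygous array 2 for Irf9 and Ifit3, and without wildtype array 2 for Irf7 and Xaf1. For the 21 the ranges were -0.28 to 0.30 for Irf1, -0.11 to 0.46 for Usp18, -0.027 to 0.46 for Ifih1, -0.15 to 0.30 for Oas1a, -0.11 to 0.60 for Oas2 and -0.0018 to 0.46 for Oasl1. They were -0.0015 to 0.079 for Ifit2, -0.77 to 1.12 for Rsad2, -0.084 to 0.34 for Cmpk2, -0.20 to 0.53 for Ifi35, -0.38 to 0.24 for Parp14, -0.22 to 0.26 for Trim25 and -0.14 to 0.88 for Ifitm3. For the GTPases they were -0.61 to 0.44 for Gbp2, -0.33 to 0.86 for Gbp3, -0.46 to 1.53 for Iigp1 and -0.74 to 0.39 for Igtp. For antigen presentation they were -0.23 to 0.19 for Tap1, -0.11 to 0.28 for Psmb8, -0.34 to 0.17 for Psmb9 and -0.24 to 0.17 for B2m.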
